A study of Homo sapiens with 9 samples.

Results

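The anaphase promoting complex, or APC/C, is the ubiquitin ligase that starts anaphase and keeps cells in G1. Described here are 10 genes of that machine in HEYA8 cells: its coactivators CDC20 and FZR1, its inhibitor FBXO5, its ubiquitin-conjugating enzymes UBE2C and UBE2S, its subunits CDC27, ANAPC10 and ANAPC11, its substrate PTTG1, and ESPL1, the protease that PTTG1 restrains. They were taken by gene name, and all 10 were found among 58735 genes in the table and among the 15232 genes that passed the filter on low counts. HEYA8 is an established human line from ovarian cancer, given in the labels as high-grade serous with genotype WT. The groups were DMSO, compound 32 and sunitinib, which blocks several receptor tyrosine kinases, each applied for 24 h to 3 samples grown in DMEM with serum. All 9 samples carry the same day, Day 1, in the labels. The sources used here give neither doses nor the relation of compound 32 to sunitinib, so the compounds are set side by side without knowing that their doses match. The series asks how each compound shifts the transcriptome of these cells.

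The APC/C attaches ubiquitin chains to proteins that must disappear for a cell to leave mitosis. CDC20 directs it to securin and cyclin B in mitosis, once the spindle checkpoint is satisfied, and FZR1 (also called CDH1) directs it to many mitotic and S phase proteins in late mitosis and G1. FBXO5 (EMI1) holds the complex inactive through S and G2 phase. Several of these genes are transcribed periodically, so that in bulk RNA fewer cells in a phase and less RNA per cell cannot be told apart.

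Each level is in CPM, the count of a gene relative to its library's total after edgeR's TMM factors were applied. Library totals ran from 15498101 to 18006171 counts. Sunitinib replicate 3 stood apart: its log2 expression correlated with the other sunitinib libraries at 0.9811 and 0.9815 across genes, against at least 0.9915 in every other pair within a group. Ribosomal protein genes took 7.58% of its counts, against 4.14 to 5.0% in the other 8 libraries. For the 10 genes the sunitinib values are given with and without it, and for the other genes in part. This library also enters the spread that all comparisons share, so leaving it out shortens the error of compound 32 against DMSO too. Of 9 markers of epithelial and ovarian tumour cells, KRT8, KRT18, KRT7, PAX8 and WT1 were present. In DMSO KRT8 was at 695, KRT18 at 359, PAX8 at 132, KRT7 at 72.2 and WT1 at 12.4 CPM. EPCAM stood at 1.32 and KRT19 at 0.82 CPM there, and MUC16 and the E-cadherin gene CDH1 (not FZR1) were at or near 0. These markers moved with treatment too: with sunitinib KRT7 rose by 1.63 on the log2 scale (edgeR adjusted p = 5.61e-08) and WT1 changed by -1.27 (1.89e-05), and with compound 32 KRT8 rose by 0.31 (0.00493) and KRT18 by 0.29 (0.032). Their part in the results was not tested. The summed level of 10 markers of blood, endothelial and stromal cells was 2.98 to 3.90 CPM in DMSO, 3.12 to 4.81 in sunitinib and 3.81 to 5.56 in compound 32. The pan-leukocyte marker PTPRC and the B cell marker MS4A1 were at or near 0. COL1A1, PECAM1 and VWF passed the filter, at 1.54, 1.02 and 0.54 CPM in DMSO. COL1A1 was higher with compound 32 than in DMSO by 0.92 (edgeR adjusted p = 0.0394) and than with sunitinib by 1.48 (0.00173). VWF was lower with compound 32 than with sunitinib by -2.30 (edgeR adjusted p = 0.00419). The part of these changes was not tested either.

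Sunitinib lowered 7 of the 10 genes and raised 0, while compound 32 lowered 6 and raised 1. Against DMSO, CDC20, FZR1, UBE2S, ESPL1 and CDC27 were lower with both compounds, UBE2C was called lower with sunitinib alone, and PTTG1 with compound 32 alone. FBXO5 moved in opposite directions, down with sunitinib and up with compound 32. Calls here mean an adjusted p under 0.05 (Benjamini-Hochberg over all genes tested) in edgeR's quasi-likelihood test. By the same rule 19.9% of all genes tested were lower and 20.3% higher with sunitinib, and 10.3% were lower and 12% higher with compound 32. Upper-quartile scaling changed the split over all genes with sunitinib from 3090 higher and 3036 lower to 3952 higher and 2316 lower, and moved the median of all genes from 0.02 to 0.10 with sunitinib against DMSO and from -0.03 to -0.12 between the compounds. The median log2 fold change of the 10 genes was -0.36 with sunitinib and -0.44 with compound 32, against 0.02 and -0.00027 over all genes tested. Without sunitinib replicate 3 the counts were 8 lower and 1 higher with sunitinib, and 7 lower and 1 higher with compound 32, beside backgrounds of 26.3% and 25.1% (51.4% in all), and of 20.5% and 21.6% (42% in all). The CPM ranges of treated and DMSO libraries did not overlap for 8 of the 10 genes with sunitinib and 9 with compound 32, where the shares of all genes were 50.8% and 49.1%. The comparisons with DMSO share the same 3 DMSO libraries.

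**Figure D1:**
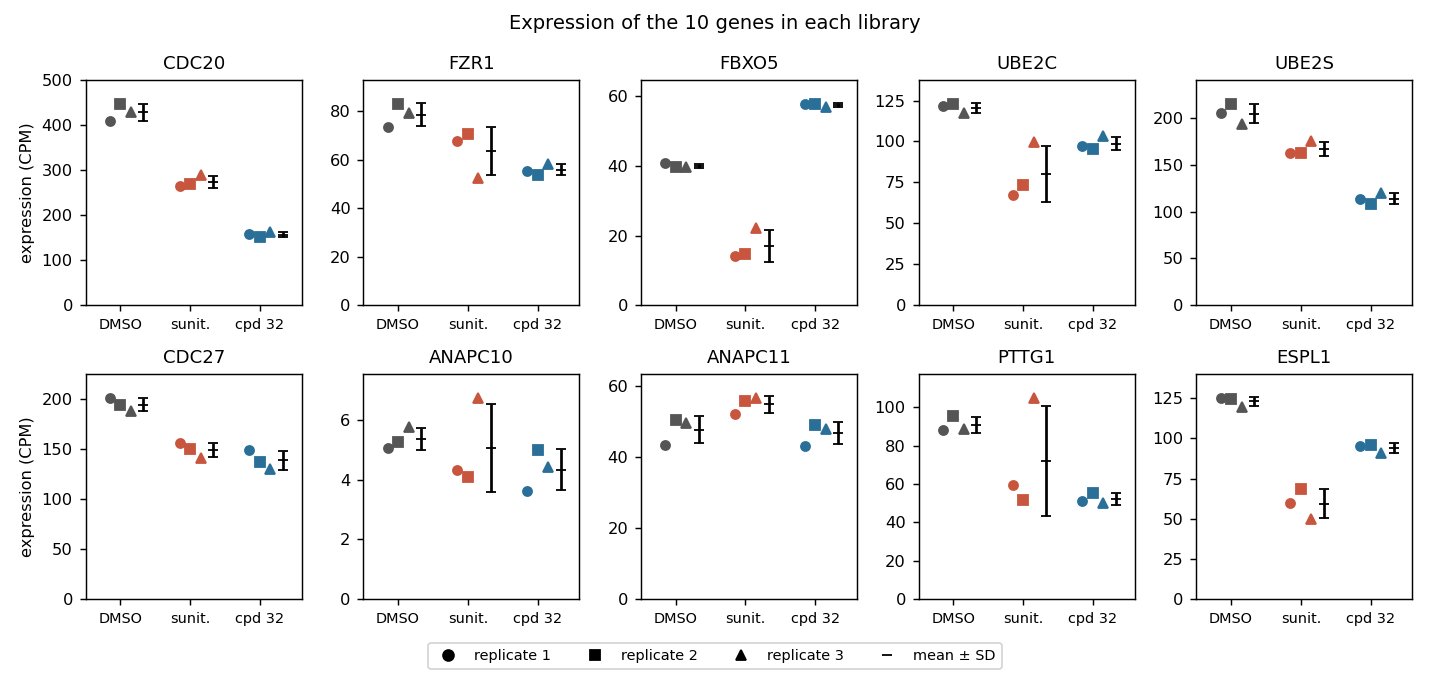
Expression of each gene in CPM (y axis from 0) in the 3 libraries of DMSO, sunitinib (sunit.) and compound 32 (cpd 32); symbols mark replicates 1 to 3, and the bar gives the mean ± SD. CDC20 steps down from DMSO to sunitinib to compound 32, FBXO5 is lowest with sunitinib and highest with compound 32, and sunitinib replicate 3 lies away from replicates 1 and 2 for PTTG1, UBE2C, FBXO5 and FZR1.

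CDC20 had the highest CPM of the 10 genes in DMSO. Its level was 409, 446 and 428 CPM in the DMSO libraries, 265, 268 and 289.5 CPM with sunitinib and 157, 151 and 162 CPM with compound 32. The 3 groups did not overlap, and each lay below the one before. The log2 fold change was -0.64 ± 0.07 (SE, n = 3 against 3) with sunitinib (edgeR adjusted p = 2.06e-05; -0.69 without sunitinib replicate 3) and -1.45 ± 0.07 with compound 32 (edgeR adjusted p = 1.54e-07), so that CDC20 fell by 63.4%. Compared directly, compound 32 was lower than sunitinib by -0.81 ± 0.07 (edgeR adjusted p = 2.17e-06), and by -0.76 without sunitinib replicate 3. CDC20 (ENSG00000117399) lies on chromosome 1 from 43358955 to 43363203 on the forward strand of GRCh38.

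Promoters of genes expressed in G2 and mitosis often hold a CHR element, the letters TTTGAA, with CCAAT boxes nearby. The stretch before the CDC20 start is shown because CDC20 gave the steepest fall of the set under compound 32. Capitals mark TTTGAA and CCAAT on either strand (TTCAAA and ATTGG on the reverse), in RefSeq sequence of GRCh38.p14 at chr1:43358731-43358954, forward strand, read 5′ to 3′ and ending at the base before the GENCODE start, which lies just upstream of the RefSeq start from which distances are counted.
CDC20: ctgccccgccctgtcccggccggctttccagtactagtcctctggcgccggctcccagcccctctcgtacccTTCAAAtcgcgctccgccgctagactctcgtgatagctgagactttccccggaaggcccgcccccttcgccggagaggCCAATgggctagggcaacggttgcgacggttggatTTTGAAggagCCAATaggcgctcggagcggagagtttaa
The forward TTTGAA begins 65 bases and the reverse form 178 bases before the start, and the CCAAT copies begin 100 and 55 bases before it. In windows from 250 bases before to 50 after each RefSeq start, 15.16% of 35116 promoters held TTTGAA on either strand and 34.61% held CCAAT.

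FZR1, the other coactivator, changed less. Its values were 73.3, 82.9 and 79.3 CPM in DMSO, 67.5, 70.7 and 52.2 CPM with sunitinib, and 55.3, 53.8 and 58.3 CPM with compound 32. Both treated groups lay below DMSO without overlap, and sunitinib replicate 3 was the lowest library of all. The fall with compound 32 was -0.49 ± 0.10 on the log2 scale (edgeR adjusted p = 0.00594). With sunitinib it was -0.31 ± 0.10 (edgeR adjusted p = 0.0338), and -0.19 without sunitinib replicate 3 (edgeR adjusted p = 0.00636). The sunitinib call was lost without DMSO replicate 2 (-0.27, edgeR adjusted p = 0.108), without DMSO replicate 3 (-0.31, 0.082), with upper-quartile scaling (-0.22, 0.0976), with library totals as the scaling (-0.24, 0.113) and with only the 6 libraries compared (-0.31, 0.0819). Between the compounds the difference was -0.19 (95% interval -0.41 to 0.04; edgeR adjusted p = 0.159), and it was called with upper-quartile scaling (-0.27, edgeR adjusted p = 0.0434) and without sunitinib replicate 3 (-0.30, 2.3e-05). FZR1 (ENSG00000105325) spans chromosome 19 from 3506273 to 3538330, and 70 of its 5802 exon bases are shared with MFSD12 on the other strand.

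Within each library the ratio of CDC20 to FZR1 was formed from CPM plus 0.5. These ratios are not corrected for gene length, so only their change between libraries is read. The ratio was 5.56, 5.36 and 5.37 in DMSO, 3.91, 3.77 and 5.50 with sunitinib, and 2.83, 2.78 and 2.76 with compound 32. Compound 32 lay below both other groups in every library, whereas sunitinib replicate 3 fell within the DMSO range. On the log2 scale the ratio differed from DMSO by -0.96 with compound 32 and by -0.33 with sunitinib, and compound 32 differed from sunitinib by -0.63. Two-sided exact permutation tests over libraries gave p = 0.1, 0.3 and 0.1, where 0.1 is the smallest value that 3 against 3 allows, and adjusted over the 3 comparisons 0.15, 0.3 and 0.15. Without sunitinib replicate 3 the sunitinib difference from DMSO was -0.50 and that between the compounds -0.46.

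**Figure D2:**
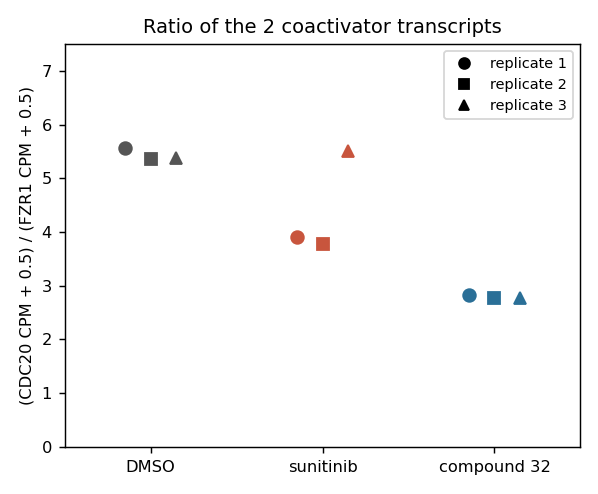
Ratio of CDC20 to FZR1 (CPM plus 0.5 each, y axis from 0) in each of the 9 libraries by treatment, with symbols for replicates 1 to 3. The 3 compound 32 libraries lie between 2.76 and 2.83, the DMSO libraries between 5.36 and 5.56, and sunitinib replicate 3 at 5.50.

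FBXO5, the inhibitor that keeps the APC/C off until mitosis, was the one gene of the set called in opposite directions. It stood at 40.8, 39.7 and 39.7 CPM in DMSO, 14.1, 14.8 and 22.2 CPM with sunitinib, and 57.9, 57.8 and 56.8 CPM with compound 32. The 3 groups did not overlap, with every sunitinib library below and every compound 32 library above DMSO. Sunitinib lowered it by -1.24 ± 0.14 on the log2 scale (edgeR adjusted p = 3.87e-05), so that FBXO5 fell by 57.7%, and by -1.48 without sunitinib replicate 3. Compound 32 raised it by 0.52 ± 0.13 (edgeR adjusted p = 0.014), or 43.5%. The direct difference between the compounds was 1.76 ± 0.14 (edgeR adjusted p = 1.43e-06), and 2.00 without sunitinib replicate 3. The rise with compound 32 passed the threshold narrowly when all 9 libraries set the spread. It was 0.51 to 0.53, with edgeR adjusted p between 0.0502 and 0.058, when DMSO replicate 1, 2 or 3 or compound 32 replicate 1, 2 or 3 was left out, and 0.52 with edgeR adjusted p = 1.56e-10 without sunitinib replicate 3. FBXO5 (ENSG00000112029) lies on chromosome 6 from 152970519 to 152983579 on the reverse strand.

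RefSeq gives FBXO5 a pair of starts, and the downstream one has both motifs before it. The sequence at chr6:152983042-152983233, reverse strand, GRCh38.p14, is printed for comparison with CDC20, since the genes responded to compound 32 in opposite directions. It runs to the base before that start, with capitals as above.
FBXO5: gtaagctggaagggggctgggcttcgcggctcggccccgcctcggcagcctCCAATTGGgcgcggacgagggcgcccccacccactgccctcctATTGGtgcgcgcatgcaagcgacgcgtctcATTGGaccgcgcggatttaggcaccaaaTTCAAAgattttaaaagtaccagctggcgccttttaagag
It holds TTCAAA, the reverse form, 40 bases before the start, and 4 CCAAT matches on either strand, of which the first 2 overlap. The upstream start had no match to either motif. Spellings of an E2F site, TTTGGCGC, TTTGCCGC, TTTCGCGC and TTTCCCGC, were searched on both strands. They matched 0 of the 18 start windows of the 9 genes found in the RefSeq promoter table, against 3.31% of all promoters. At so low a share a small set of windows can hold none, and other spellings were not searched. Absence of E2F sites is therefore not shown.

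Genes with a profile very like that of FBXO5 over the 9 libraries included TFDP1, the dimer partner of E2F factors (Pearson r = 0.999), and YWHAH (0.997), among 10728 genes with a mean of at least 5 CPM. TFDP1 averaged 305 CPM in DMSO, 192 with sunitinib and 373 with compound 32. For CDC20 they were KIF20A, a kinesin of cytokinesis (0.997), DLGAP5, a spindle protein gene (0.991), and CCNB1, the cyclin of mitotic entry (0.991). CCNB1 averaged 284 CPM in DMSO, 164 with sunitinib and 72.4 with compound 32. For FZR1 they were SQSTM1 (0.976), SLC35B4 (0.975) and MIEF1 (0.973). All these correlations are descriptions over libraries that share 3 treatments and a library that stands apart.

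The conjugating enzymes did not move in step. UBE2C, which places the first ubiquitins on a substrate, was at 122, 123 and 117 CPM in DMSO, 67.1, 73.3 and 99.5 CPM with sunitinib, and 97.5, 95.2 and 103 CPM with compound 32. Both treated groups lay below DMSO, and sunitinib replicate 3 fell in the compound 32 range. Sunitinib lowered UBE2C by -0.59 ± 0.12 on the log2 scale (edgeR adjusted p = 0.00209), and by -0.78 without sunitinib replicate 3. With compound 32 its value was -0.29 ± 0.12 (edgeR adjusted p = 0.102), not called. The size was the same, -0.29, but called with only the 6 libraries compared (edgeR adjusted p = 1.21e-06) and without sunitinib replicate 3 (8.74e-07), and -0.30 and called with no filter on low counts (0.00721).

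UBE2S extends the chain on the first ubiquitins. Its values were 205, 215 and 194 CPM in DMSO, 162, 163 and 175 CPM with sunitinib, and 114, 108 and 119.9 CPM with compound 32. The 3 groups did not overlap, in the same order as for CDC20. The fall was -0.30 ± 0.07 with sunitinib (edgeR adjusted p = 0.00491; -0.33 without sunitinib replicate 3) and -0.85 ± 0.07 with compound 32 (edgeR adjusted p = 8.26e-06). Directly compared, compound 32 was lower than sunitinib by -0.55 ± 0.07 for UBE2S (edgeR adjusted p = 5.09e-05; -0.51 without sunitinib replicate 3), whereas the difference for UBE2C was 0.30 (95% interval 0.04 to 0.56; edgeR adjusted p = 0.0519). The UBE2C difference was called with RLE scaling (0.32, edgeR adjusted p = 0.0407), without a filter on low counts (0.33, 7.3e-04), with the number in the sample titles as a block (0.32, 0.0431), with DESeq2 (0.32, 0.0343), with limma voom (0.33, 0.0369) and without sunitinib replicate 3 (0.50, edgeR adjusted p = 1.79e-11). UBE2C (ENSG00000175063) lies on chromosome 20 from 45812576 to 45816957 and UBE2S (ENSG00000108106) on chromosome 19 from 55399745 to 55407777. The UBE2S interval overlaps that of RPL28 on the other strand, with 0 shared exon bases. Its processed pseudogene UBE2SP1 reached at most 3.35 CPM.

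PTTG1 encodes securin, the APC/C substrate that blocks separase until anaphase. It stood at 88.2, 95.5 and 88.9 CPM in DMSO, 59.3, 51.8 and 105 CPM with sunitinib, and 51.3, 55.5 and 49.9 CPM with compound 32. Sunitinib replicates 1 and 2 lay near the compound 32 libraries, but replicate 3 was the highest of all 9. With all libraries the sunitinib value was -0.34 ± 0.20 (edgeR adjusted p = 0.211), and without sunitinib replicate 3 it was -0.71 ± 0.06 and called (edgeR adjusted p = 1.03e-14). Compound 32 lowered PTTG1 by -0.80 ± 0.21 (edgeR adjusted p = 0.0179). That call was lost without DMSO replicate 2 (-0.77, edgeR adjusted p = 0.0564), without compound 32 replicate 1 (-0.79, 0.0569) or 3 (-0.77, 0.067), and with no filter on low counts (-0.81, 0.145). Between the compounds PTTG1 differed by -0.46 (95% interval -0.92 to -0.01; edgeR adjusted p = 0.0854). That difference was -0.09 without sunitinib replicate 3 (edgeR adjusted p = 0.239), and was called without sunitinib replicate 1 (-0.59, 0.041) or 2 (-0.65, 0.0153), with upper-quartile scaling (-0.55, 0.0488) and with library totals as the scaling (-0.51, 0.0406). PTTG1 (ENSG00000164611) lies on chromosome 5 from 160421822 to 160428744. Its paralogue PTTG2 had at most 1 count in a library and the pseudogene PTTG3P had 0.

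ESPL1 encodes separase, the protease that cuts cohesin when securin is destroyed. Its level was 125, 124 and 119.8 CPM in DMSO, 59.7, 68.4 and 50.002 CPM with sunitinib, and 95.4, 96.1 and 90.6 CPM with compound 32. No groups overlapped, and sunitinib was the lowest. Sunitinib lowered it by -1.05 ± 0.10 on the log2 scale (edgeR adjusted p = 8.73e-06), or -0.95 without sunitinib replicate 3, and compound 32 by -0.39 ± 0.09 (edgeR adjusted p = 0.0124). The call for compound 32 was lost without compound 32 replicate 3 (-0.37, edgeR adjusted p = 0.0596). Compound 32 was higher than sunitinib by 0.66 ± 0.10 (edgeR adjusted p = 1.66e-04), and by 0.56 without sunitinib replicate 3. ESPL1 (ENSG00000135476) spans chromosome 12 from 53268299 to 53293643.

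The stretches before the starts of the substrate and the protease are shown together, because the proteins bind each other. ESPL1 is at chr12:53268049-53268298 and PTTG1 at chr5:160421605-160421821, both on the forward strand of GRCh38.p14, with capitals as above.
ESPL1: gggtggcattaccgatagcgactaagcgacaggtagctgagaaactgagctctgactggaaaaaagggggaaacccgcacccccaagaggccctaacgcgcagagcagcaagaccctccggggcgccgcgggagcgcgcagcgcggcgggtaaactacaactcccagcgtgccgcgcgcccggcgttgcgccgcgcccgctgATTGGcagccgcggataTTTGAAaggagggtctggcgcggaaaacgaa
PTTG1: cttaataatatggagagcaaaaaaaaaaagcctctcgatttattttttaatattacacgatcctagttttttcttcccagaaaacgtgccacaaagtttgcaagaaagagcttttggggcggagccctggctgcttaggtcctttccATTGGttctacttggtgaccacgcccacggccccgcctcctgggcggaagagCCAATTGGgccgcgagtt
ESPL1 holds TTTGAA 31 bases before its start and ATTGG 48 bases before it. The PTTG1 window holds 3 CCAAT matches and no TTTGAA. Over the 9 genes found in the promoter table, 5 of 18 start windows held TTTGAA, in 5 genes (CDC20, FZR1, FBXO5, ESPL1 and ANAPC10), and 10 of 18 held CCAAT, in 7 genes. Several starts of a gene overlap, and a match is a description of the letters, not a site.

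**Figure D3:**
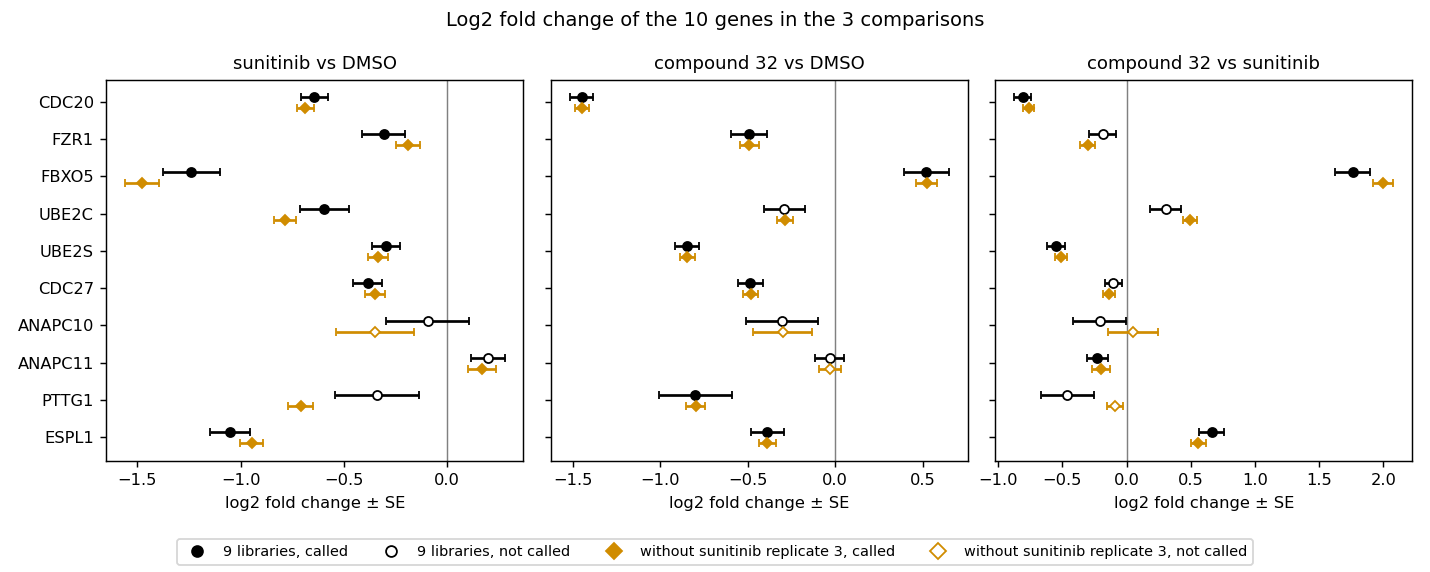
Log2 fold change ± SE (x axis) of the 10 genes in the 3 comparisons, from all 9 libraries (circles) and without sunitinib replicate 3 (diamonds); filled symbols passed an edgeR adjusted p under 0.05. FBXO5 lies at -1.24 with sunitinib and 0.52 with compound 32, and PTTG1 moves from -0.34 to -0.71 with sunitinib when that library is left out.

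CDC27, a scaffold subunit that binds the coactivators, fell modestly with both compounds. It was at 201, 194 and 188 CPM in DMSO, 156, 149.98 and 142 CPM with sunitinib, and 149, 137 and 131 CPM with compound 32. All 6 treated libraries lay below the 3 DMSO libraries, and the treated groups overlapped each other. The log2 fold change was -0.38 ± 0.07 with sunitinib (edgeR adjusted p = 0.00113; -0.35 without sunitinib replicate 3) and -0.49 ± 0.07 with compound 32 (edgeR adjusted p = 5.56e-04). Between the compounds the difference was -0.10 (95% interval -0.25 to 0.05; edgeR adjusted p = 0.245). It was called with upper-quartile scaling (-0.19, edgeR adjusted p = 0.0408) and without sunitinib replicate 3 (-0.14, 0.0143). CDC27 (ENSG00000004897) lies on chromosome 17 from 47117703 to 47189422, and its pseudogenes reached at most 1 count in a library.

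ANAPC11, the RING subunit of the complex, ran from 43.3 to 50.3 CPM in DMSO. It ran from 52.0 to 56.6 CPM with sunitinib and from 43.1 to 49.1 CPM with compound 32. The sunitinib libraries lay just above both other groups. The sunitinib value against DMSO was 0.20 ± 0.08 (edgeR adjusted p = 0.073). It was called higher without sunitinib replicate 3 (0.17, edgeR adjusted p = 0.0341), with upper-quartile scaling (0.28, 0.0183), with library totals as the scaling (0.26, 0.0255) and with the number in the sample titles as a block (0.20, 0.0456). Compound 32 was at -0.03 ± 0.08 against DMSO and lower than sunitinib by -0.23 ± 0.08 (edgeR adjusted p = 0.0358; -0.20 without sunitinib replicate 3). This last call was lost with DESeq2 (adjusted p = 0.054), with only the 6 libraries compared (edgeR adjusted p = 0.0514), with no filter on low counts (0.11), and without DMSO replicate 3 (0.0572), sunitinib replicate 2 (0.0801) or compound 32 replicate 1, 2 or 3 (0.157, 0.0505 and 0.0716). ANAPC11 (ENSG00000141552) lies on chromosome 17 from 81890790 to 81900991 and shares 62 exon bases with ALYREF and 27 with PCYT2, both on the other strand. PCYT2 was higher with sunitinib by 0.68 ± 0.08 (edgeR adjusted p = 7.72e-05), while ALYREF was lower by -0.47 ± 0.11 (0.00542). No source used here says whether reads were counted by strand.

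ANAPC10, which helps the coactivators to hold the degradation signal, was the scarcest of the set. It had 56 to 104 counts per library, or 5.06 to 5.79 CPM in DMSO, 4.09 to 6.76 CPM with sunitinib and 3.62 to 5.01 CPM with compound 32. Sunitinib covered the DMSO range and compound 32 lay just below it. The values were -0.09 ± 0.20 with sunitinib (95% interval -0.53 to 0.35; edgeR adjusted p = 0.742; -0.35 and 0.12 without sunitinib replicate 3) and -0.30 ± 0.21 with compound 32 (-0.75 to 0.15; edgeR adjusted p = 0.334). A change of the size seen for CDC27 lies inside both intervals, so it is neither shown nor excluded. ANAPC10 (ENSG00000164162) lies on chromosome 4 from 144831908 to 145098541, and 10.4% of its exon bases are shared with ABCE1 on the other strand, which was at 216 CPM over all libraries and changed by -0.67 ± 0.07 with sunitinib (edgeR adjusted p = 1.73e-05).

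Levels of different genes were compared as CPM per kilobase of exon. That length counts every exon base annotated for a gene, not those of the transcripts expressed. The orders below therefore hold for this measure only. In DMSO the order was CDC20 (210.0 ± 9.10 CPM per kb, SD, n = 3), UBE2C (93.8 ± 2.34), UBE2S (73.5 ± 3.78), PTTG1 (45.1 ± 1.98), CDC27 (28.5 ± 0.96), ESPL1 (13.8 ± 0.33), FZR1 (13.5 ± 0.84), ANAPC11 (11.8 ± 0.95), FBXO5 (10.5 ± 0.17) and ANAPC10 (1.19 ± 0.08). Neighbours did not overlap in that order, except for ESPL1 and FZR1. With compound 32 the level of CDC20 (76.9 ± 2.82 CPM per kb) overlapped that of UBE2C (76.7 ± 3.19), and FBXO5 (14.8 to 15.1) moved above ANAPC11 (11.6 ± 0.78), ESPL1 (10.6 ± 0.33) and FZR1 (9.62 ± 0.39). With sunitinib FBXO5 (4.44 ± 1.18 CPM per kb) overlapped ESPL1 (6.68 ± 1.04), and UBE2C (62.2 ± 13.4) overlapped UBE2S (59.9 ± 2.62). Both overlaps came from sunitinib replicate 3 alone. In sunitinib replicates 1 and 2 FBXO5 lay below ESPL1, as it did in DMSO. UBE2C lay below UBE2S in these replicates, the reverse of the order of UBE2C and UBE2S in DMSO.

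**Figure D4:**
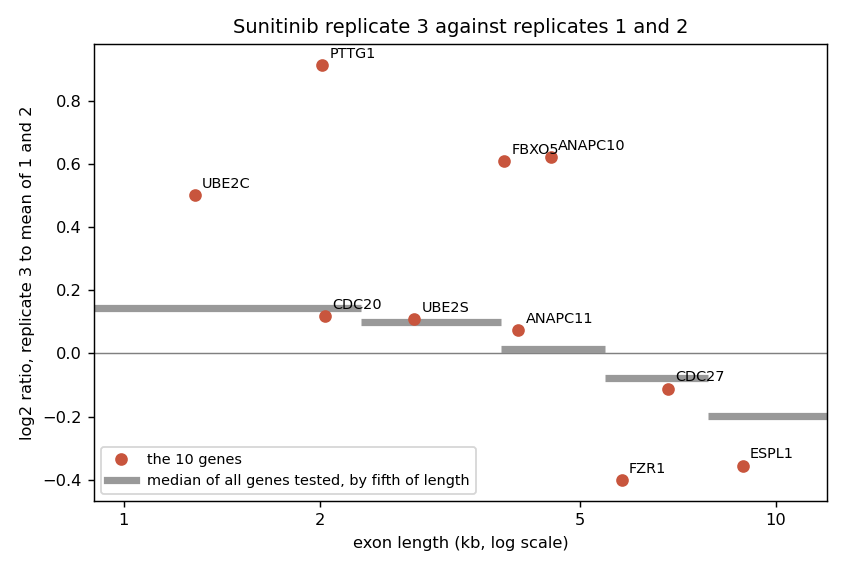
Log2 ratio of sunitinib replicate 3 to the mean of sunitinib replicates 1 and 2 (y axis) against exon length in kb (log x axis) for the 10 genes, with grey bars at the median of all genes tested in each of 5 length classes of about equal size (the outer bars stop at the axis limits). The medians go from 0.14 in the shortest class to -0.20 in the longest, and PTTG1 lies at 0.91.

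The deviation of sunitinib replicate 3 differed between the 10 genes. Against the mean of replicates 1 and 2 its log2 ratio was 0.91 for PTTG1, 0.62 for ANAPC10, 0.61 for FBXO5 and 0.50 for UBE2C, and between -0.11 and 0.12 for CDC20, UBE2S, ANAPC11 and CDC27. FZR1 was at -0.40 and ESPL1 at -0.35. Over all genes tested the median ratio was 0.14 for exon lengths of 53 to 2312 bases, the range of UBE2C, PTTG1 and CDC20, and -0.20 for 7879 bases and more, the range of ESPL1. PTTG1 and UBE2C lay above the median of their length range and CDC20 beside it. The median was 0.01 for 3788 to 5478 bases, the range of FBXO5, ANAPC10 and ANAPC11. For 5479 to 7878 bases, the range of FZR1 and CDC27, it was -0.08. FBXO5 and ANAPC10 thus lay above, and FZR1 below, the median of their ranges. The part of length in these values was not tested.

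The core complex has 14 subunits here, CDC27, ANAPC10 and ANAPC11 among them. With sunitinib 3 were lower and 1 higher of 14, and with compound 32 5 were lower and 0 higher, which is 28.6% and 35.7% of the list beside 40.2% and 22.3% of all genes tested. The median log2 fold change was -0.12 and -0.20. ANAPC1, the largest scaffold subunit, fell with both compounds, by -0.44 ± 0.09 with sunitinib (edgeR adjusted p = 0.00218) and by -0.32 ± 0.09 with compound 32 (0.023). CDC23 fell with sunitinib by -0.32 ± 0.08 (edgeR adjusted p = 0.00736) and was higher with compound 32 than with sunitinib by 0.28 ± 0.08 (0.0128). CDC16, ANAPC7 and ANAPC13 fell with compound 32, by -0.31, -0.31 and -0.34 (edgeR adjusted p = 0.0417, 0.0361 and 0.0223). Values for ANAPC2, ANAPC4, ANAPC5, CDC26 and ANAPC15 did not pass the threshold against DMSO with either compound. Without sunitinib replicate 3 the sunitinib counts were 6 lower and 2 higher, beside 26.3% and 25.1% of all genes. Among the lower were then CDC26, which went from -0.10 to -0.45 (edgeR adjusted p = 4.83e-04), ANAPC5 at -0.21 (2.04e-04) and ANAPC7 at -0.35 (1.16e-06).

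ANAPC16, a small subunit of the complex, was the one subunit called higher with sunitinib when all 9 libraries were used. It stood at 42.3, 39.9 and 39.5 CPM in DMSO, 71.2, 66.4 and 95.1 CPM with sunitinib, and 41.0, 38.5 and 43.3 CPM with compound 32. All sunitinib libraries lay above the other 6. The log2 fold change with sunitinib was 0.93 ± 0.12 (edgeR adjusted p = 9.75e-05), and 0.76 without sunitinib replicate 3 (3.82e-15), while with compound 32 it was 0.01 ± 0.12 (0.956). Compound 32 was lower than sunitinib by -0.92 ± 0.12 (edgeR adjusted p = 6.78e-05). Of the 14 subunits, 5 were lower and 1 higher with compound 32 than with sunitinib, beside 25.2% and 24.1% of all genes. Besides ANAPC16 and ANAPC11 the lower were CDC16 (-0.55 ± 0.10, edgeR adjusted p = 6.9e-04), ANAPC4 (-0.41 ± 0.11, 0.00784) and ANAPC13 (-0.34 ± 0.09, 0.0108). Without sunitinib replicate 3 the counts between the compounds were 6 lower and 3 higher, beside 29% and 29.7% of all genes. The values were then -0.75 for ANAPC16, -0.40 for CDC16, -0.31 for ANAPC4 and -0.22 for ANAPC13.

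Transcripts of the proteins that the APC/C destroys were counted in 2 groups. Of 24 substrates expressed mainly in G2 and mitosis, 23 were lower with sunitinib (median -0.84) and 22 with compound 32 (median -0.85), with 0 higher, beside 19.9% and 10.3% of all genes lower. These were 24 and 22 without sunitinib replicate 3, beside 26.3% and 20.5% of all genes lower. PLK1, a kinase of mitotic entry, was at 174 ± 6.94 CPM (SD, n = 3) in DMSO, 84.1 ± 2.70 with sunitinib and 43.8 ± 0.90 with compound 32. CCNB1 fell from 284 ± 9.17 to 164 ± 34.9 and 72.4 ± 5.05 CPM. In the direct test 9 of the 24 were higher and 9 lower with compound 32 than with sunitinib, beside 24.1% and 25.2% of all genes. PLK1 was lower by -0.94 ± 0.06 (edgeR adjusted p = 3.86e-07), whereas ANLN, a protein of the cleavage furrow, was higher by 1.04 ± 0.07 (2.49e-07) and CCNA2, cyclin A2, by 0.78 ± 0.06 (2.17e-06).

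Of 8 substrates expressed around the G1/S transition, 8 were lower with sunitinib (median -1.32), and with compound 32 6 were higher and 0 lower (median 0.58), beside 19.9% of all genes lower with sunitinib and 12% higher with compound 32. RRM2, a subunit of ribonucleotide reductase, was at 150.4 ± 3.802 CPM in DMSO, 37.5 ± 4.67 with sunitinib and 324 ± 3.21 with compound 32. CDC25A and CDC6 rose with compound 32 by 0.77 ± 0.08 and 0.77 ± 0.07 (edgeR adjusted p = 3.9e-05 and 2.38e-05). All 8 were higher with compound 32 than with sunitinib in the direct test, by 1.34 to 3.11 on the log2 scale, against 24.1% of all genes tested.

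**Figure D5:**
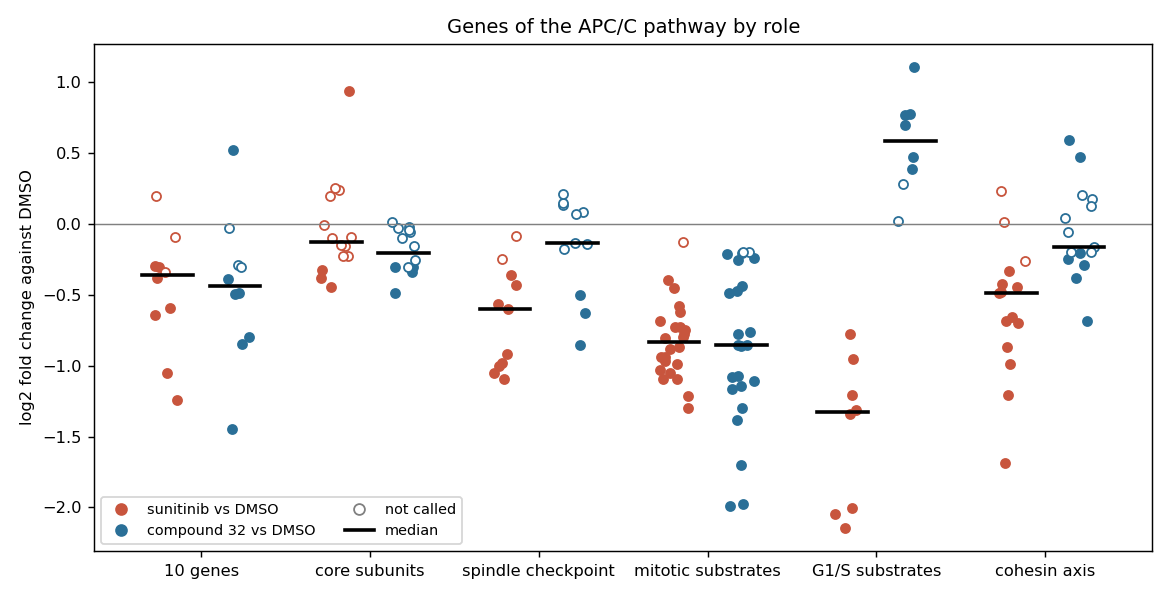
Log2 fold change against DMSO (y axis) of each gene tested in 6 groups of the APC/C pathway, for sunitinib and compound 32; filled points passed an edgeR adjusted p under 0.05 and the bar is the median. The G1/S substrates lie at -2.14 to -0.77 with sunitinib and 0.02 to 1.11 with compound 32, while the mitotic substrates lie below 0 with both.

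The spindle checkpoint feeds CDC20 into an inhibitory complex. Of 11 checkpoint genes 9 were lower with sunitinib (median -0.60) and 3 with compound 32 (median -0.13), with 0 higher, beside 19.9% and 10.3% of all genes lower. Whether the compounds differ in that count was not tested. BUB1 and BUB1B, which encode checkpoint kinase and scaffold proteins, were lower with both, by -1.09 ± 0.07 and -1.05 ± 0.07 with sunitinib and by -0.85 ± 0.07 and -0.50 ± 0.07 with compound 32. MAD2L1, which encodes the protein that captures CDC20, fell by -0.98 ± 0.08 with sunitinib (edgeR adjusted p = 5.05e-06) and had a value of 0.15 with compound 32 (0.227). In the direct test 10 of the 11 were higher with compound 32, beside 24.1% of all genes, and 0 lower, with MAD2L1 at 1.13 ± 0.08 (edgeR adjusted p = 9.49e-07) and KNTC1 at 1.13 ± 0.07 (3.45e-07). With sunitinib replicate 3 left out, sunitinib gave 10 lower, beside 26.3% of all genes, and compound 32 gave 5 lower and 3 higher, beside 20.5% and 21.6%, with MAD2L1 (0.15, edgeR adjusted p = 0.0108) and KNTC1 (0.21, 2.23e-04) called higher. BUB1 stands in the list of mitotic substrates too, and SGO1 and CDCA5 stand in both the cohesin list and a substrate list.

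The genes of cohesin, which separase cuts, and of its regulators fell in 12 of 15 cases with sunitinib (median -0.48, 0 higher). With compound 32 5 were lower and 2 higher (median -0.16). The shares of all genes were 19.9% lower with sunitinib, and 10.3% lower and 12% higher with compound 32. Without sunitinib replicate 3 the counts were 13 lower and 1 higher with sunitinib, and 7 lower and 5 higher with compound 32, beside 26.3% and 25.1%, and 20.5% and 21.6%. ESCO2, which acetylates cohesin in S phase, went from -1.69 ± 0.09 with sunitinib to 0.59 ± 0.08 with compound 32, and CDCA5, which encodes sororin, from -1.21 ± 0.06 to 0.47 ± 0.06. RAD21, the subunit that separase cuts, was lower with sunitinib by -0.48 ± 0.06 (edgeR adjusted p = 1.01e-04) and with compound 32 by -0.38 ± 0.06 (0.00116). Of 7 genes that govern FBXO5 turnover or are its relatives, 2 were lower with sunitinib and 0 were called with compound 32, beside 40.2% and 22.3% of all genes called. Without sunitinib replicate 3 sunitinib gave 4 lower and 1 higher, beside 26.3% and 25.1%. CUL1, the cullin of the ligase that degrades FBXO5, was lower with sunitinib by -0.43 ± 0.07 (edgeR adjusted p = 8e-04). Of 6 other regulators tested, sunitinib raised CUEDC2 by 0.60 ± 0.09 (edgeR adjusted p = 2.56e-04) and lowered the deubiquitinase gene USP37 by -1.05 ± 0.19 (0.00103), or -0.81 without sunitinib replicate 3. These were 2 of the 6, beside 40.2% of all genes called. Compound 32 gave 0 calls among them, beside 22.3%, or 3 higher and 1 lower without sunitinib replicate 3, beside 21.6% and 20.5%.

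Comparing the compounds directly, 5 of the 10 genes differed, beside 49.2% of all genes tested, and the CPM ranges did not overlap for 5, beside 56.9%. FBXO5 and ESPL1 were higher with compound 32, where the background was 24.1%, and CDC20, UBE2S and ANAPC11 were lower, where it was 25.2%. Without sunitinib replicate 3 the counts were 3 higher and 5 lower, beside 29.7% and 29% (58.7% in all), since UBE2C joined the higher genes and FZR1 and CDC27 the lower.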

How the data were processed

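The labels' protocols give TRIzol extraction, enrichment on oligo(dT) and cDNA from random hexamers. Values are the deposited counts, not normalized, of 58735 genes, in 9 columns that were matched to samples by label. The submitters' processing notes name fastp, HISAT2 2.0.5, featureCounts, DESeq2 and edgeR without a role for each, and list hg38 and mm10. Identifiers and positions matched GENCODE release 29 (GRCh38) for 58724 genes, and exon lengths of all 10 members equalled the deposited gene lengths, a value of other kind per the file headers. The sources used here do not say whether counting used strand or how multi-mapping reads were treated.

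Genes were kept by filterByExpr (15232) and scaled by TMM. Tests used edgeR 4.0.16 (R 4.3.3), quasi-likelihood, robust, with group means over 9 libraries and 6 residual degrees of freedom, and Benjamini-Hochberg adjustment over all genes kept. CPM values use the TMM factors, and SE and 95% intervals come from the same fit. DESeq2 1.42.0, limma 3.58.1 voom, other scalings and filters, a block and leaving out each library were alternatives. The fit was tested on simulated data. Replicates differed by more than sampling noise (chi-square per degree of freedom at least 1.85), so none was counted as a copy. The labels do not say of every group that its samples are separate cultures, so p-values may measure technical spread. Members and lists were chosen with earlier results of these data known. Beyond the 10 members, named genes were, per list and comparison, the 4 called genes with the smallest p and a mean of at least 5 CPM, all core subunits, and the 3 genes most correlated with CDC20, FBXO5 and FZR1, of which 1 is not reported here. Overlapping genes and marker genes are named beside them, and uncalled values of named genes in another comparison are given beside the called ones.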

Additional observations from a re-analysis of the deposited data

How the results depend on the processing

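Over 570 values of the 10 genes under alternatives, 514 kept their direction and side of the threshold, 29 lost and 22 gained a call, and 5, all uncalled, changed sign. The last were ANAPC11 with compound 32 against DMSO (0.00515 without DMSO replicate 2 and 0.0184 without compound 32 replicate 1), ANAPC10 with sunitinib (0.00704 without sunitinib replicate 1 and 0.0299 without replicate 2) and ANAPC10 between the compounds (0.0483 without sunitinib replicate 3). Over all leave-one-out fits these ran from -0.101 to 0.0184, from -0.349 to 0.0299 and from -0.338 to 0.0483. The cause was not tested. Against 0 of the 10 genes higher with sunitinib, upper-quartile scaling, library totals and the replicate block each gave 1, ANAPC11. Over the 15232 genes tested these settings gave 3952, 3665 and 2846 higher, against 3090. With upper-quartile scaling 6 of the 10 were lower with compound 32 than with sunitinib, against 3. The calls over all genes shifted the same way, with 4712 of 15232 lower, against 3834. At an adjusted p under 0.01 compound 32 raised 0 of the 10 against 1, where 977 against 1830 of all genes were higher. Over all genes sunitinib then changed 3948 against 6126 and compound 32 1715 against 3401. With only the 6 libraries compared, compound 32 changed 6372 genes.

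Leaving out 1 library at a time gave 0 to 1 higher and 6 to 8 lower with sunitinib, 0 to 1 higher and 4 to 7 lower with compound 32, and 2 to 3 higher and 2 to 5 lower between the compounds. Over all genes it gave 4738 to 8004, 2136 to 6548 and 6352 to 9139 calls; the upper ends are without sunitinib replicate 3. The pair of libraries left in a group is assumed to vary like the others. Same-numbered samples did not deviate together (r from -0.0769 to 0.0609 over 9 pairs, and 2 of 9 libraries correlated best with their own number), so the numbers are not taken as a pairing. ANAPC10 rests on 56 to 104 counts per library, and the part of depth in its wide intervals was not tested.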
